A study of Homo sapiens with 4 samples.

Results

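STARR-seq measures the enhancer activity of DNA fragments carried on plasmids, and here it was compared between MDA-MB-231 cells given MG132 and cells given the solvent DMSO, at the places in the genome where the peak lists of both libraries can be set side by side. MDA-MB-231 is an established human breast cancer line of mesenchymal, basal-like type. The plasmid library was made from sheared genomic DNA of the same line, the drugs were put into the medium before the plasmids were transfected, and reporter RNA was collected 8 h after transfection. The MG132 group received MG132 at 100 nM, and the DMSO group received no drug. The other groups of the series received SHP1705 at 10 µM, a compound that stabilizes the clock protein CRY2, or SHP1705 at 10 µM together with MG132 at 100 nM (the combination), and are given here only as values beside the first pair. There was 1 library per treatment, so treatment and library cannot be told apart, no spread between replicates exists and no p-value is given.

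MG132 is a peptide aldehyde that blocks the proteasome, the protease complex that degrades proteins tagged with ubiquitin. Cells with blocked proteasomes are known to accumulate ubiquitin-tagged and misfolded proteins, to activate the heat shock factor HSF1 and the factors NRF2 and ATF4, and to make more proteasome subunits through the factor NFE2L1. In STARR-seq a fragment is placed in the transcribed part of a reporter, and the RNA made from active fragments is counted by sequencing. A peak inside a gene reports fragments that align there and is no direct measure of that gene's own transcription.

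The members were chosen from the peak lists on chromosomes 1 to 22 and X by 2 conditions. A shared pair is an MG132 peak and a DMSO peak whose summits, the points of highest coverage, lie within 250 bp of each other, each being the nearest summit to the other. A one-list-only peak is at least 1.5 times as long as the fragment size d given in its file header, has its summit more than 2 bp from the middle of the peak, and is overlapped by no peak of the other list. There were 14654 members of 260678 peaks in all lists. They were 7040 shared pairs, 4899 MG132-only peaks and 2715 DMSO-only peaks. The height of a peak is its pileup, the number of fragments that cover the summit, per 1000000 fragments of the library, written FPM. Since summit positions, lengths and overlaps chose the members, these are described and not tested.

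The MG132 library held 27289266 fragments and the DMSO library 29717604, against 28331486 in the combination and 118324303 in SHP1705. There were 69842 MG132 peaks and 47822 DMSO peaks. The share of peaks with a summit at most 2 bp from their middle, which is the form of a single pile of like fragments, was 55.4% in MG132 and 50.1% in DMSO. Few of these piles recurred. Of the centred MG132 peaks, 2.67% were overlapped by a DMSO peak, against 46.4% of the 9146 MG132 peaks that met the length and summit conditions, which are called wide below. The cell line was checked through the locus of CDKN2A, CDKN2B and MTAP, which is lost from the MDA-MB-231 genome and so from the plasmid library. CDKN2A had no peak in MG132 or in DMSO, CDKN2B had 1 peak of 18 fragments in MG132, and MTAP had 1 peak of 28 fragments in DMSO. A shared pair of 19 fragments in MG132 and 21 in DMSO lay outside these genes, 7995 bp from CDKN2A. It lay near enough to be counted with the deleted locus, and so it went against the check in both libraries. The combination had 1 peak of 70 fragments in MTAP and a taller one at that pair, given with the listed genes below. The SHP1705 list went further against this, with 5, 3 and 3 peaks in the 3 genes and up to 3289 fragments, and its values below are given with that limit.

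Sequence could be shown only where a summit fell in one of the RefSeq promoter windows (GRCh38.p14), which run from 250 bases before a gene's start to 50 after it. Few members did so: 2 shared pairs, 6 MG132-only peaks and 2 DMSO-only peaks. The 250 upstream bases of 5 of them are printed 5′ to 3′ on the strand of the gene, as examples. The listed peaks cover these bases, in RTN2 for the larger part and in the others whole. Peaks also cover the windows of GHRL, TAS2R41 and SIGLEC15 whole, and these are not printed. WT1 and RTN2 represent pairs found in both libraries, JPT1 and SNRPB peaks found with MG132, and RCE1 a peak found with DMSO. Capitals mark matches, on either strand, to any of 9 motifs. These were the heat shock half-site pairs GAANNTTC and TTCNNGAA, the antioxidant response core TGACNNNGC, the AP-1 site TGANTCA, the cyclic AMP element TGACGTCA, the E-box CACGTG, the CCAAT box CCAAT, the GC box GGGCGG and the TATA box TATAAA. The antioxidant core and the cyclic AMP element begin with the same letters and can overlap, and adjacent GC boxes can overlap each other.
WT1, chr11:32434041-32434290 (minus strand): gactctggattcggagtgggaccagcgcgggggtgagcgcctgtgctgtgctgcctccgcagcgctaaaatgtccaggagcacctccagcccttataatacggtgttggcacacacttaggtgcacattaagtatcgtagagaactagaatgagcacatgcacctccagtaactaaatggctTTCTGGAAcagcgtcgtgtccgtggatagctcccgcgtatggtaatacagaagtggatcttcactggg
RTN2, chr19:45493254-45493503 (minus strand): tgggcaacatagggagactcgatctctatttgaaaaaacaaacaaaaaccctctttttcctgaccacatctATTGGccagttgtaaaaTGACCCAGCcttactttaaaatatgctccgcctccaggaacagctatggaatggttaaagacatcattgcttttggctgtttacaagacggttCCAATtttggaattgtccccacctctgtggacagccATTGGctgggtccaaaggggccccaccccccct
JPT1, chr17:75154513-75154762 (minus strand): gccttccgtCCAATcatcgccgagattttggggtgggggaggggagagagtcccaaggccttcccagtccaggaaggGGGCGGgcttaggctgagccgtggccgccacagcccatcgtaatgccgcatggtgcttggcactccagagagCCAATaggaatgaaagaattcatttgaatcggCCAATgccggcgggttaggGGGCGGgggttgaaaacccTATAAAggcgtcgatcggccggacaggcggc
SNRPB, chr20:2470790-2471039 (minus strand): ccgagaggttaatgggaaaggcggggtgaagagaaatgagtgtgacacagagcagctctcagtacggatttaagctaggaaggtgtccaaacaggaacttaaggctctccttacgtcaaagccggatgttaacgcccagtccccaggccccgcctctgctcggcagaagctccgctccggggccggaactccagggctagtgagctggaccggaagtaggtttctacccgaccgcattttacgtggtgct
RCE1, chr11:66843191-66843440 (plus strand): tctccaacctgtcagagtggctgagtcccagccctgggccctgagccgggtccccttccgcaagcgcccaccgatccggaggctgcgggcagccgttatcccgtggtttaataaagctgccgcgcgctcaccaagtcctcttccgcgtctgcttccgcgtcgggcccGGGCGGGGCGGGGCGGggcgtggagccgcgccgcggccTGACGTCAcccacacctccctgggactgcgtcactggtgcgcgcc

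In WT1, the gene of a developmental zinc finger factor, the summit was covered by 398 fragments with MG132 and 295 with DMSO, a ratio of 1.47 (95% counting interval 1.26 to 1.71). In RTN2, a gene of a membrane-shaping reticulon, 99 fragments stood against 145, a ratio of 0.74 (0.57 to 0.97). Neither pair reached a 2-fold difference. The MG132-only peaks held 61 fragments at JPT1 and 168 at SNRPB, which encodes a core protein of the spliceosome. The DMSO-only peak at RCE1, the protease that trims prenylated proteins such as RAS, held 568. None of these 3 one-list-only peaks was overlapped by a peak of the combination or of SHP1705. The WT1 window held 1 TTCNNGAA match, which 5.79% of the 22132 upstream windows of 15812 genes also hold. The RTN2 window held 1 TGACNNNGC match, as do 11.2% of windows, and 3 CCAAT matches, as 32.7% do at least once. JPT1 held 3 CCAAT, 2 GC box (53.7% of windows) and 1 TATA box match (9.0%), and RCE1 held 3 GC box matches and 1 TGACGTCA match (2.02%). No motif of the 9 was in the SNRPB window.

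Taken pair by pair, the ratios of MG132 height over DMSO height at the shared pairs were centred near equality. The median log2 ratio of MG132 over DMSO was 0.013 (95% interval -0.0075 to 0.033), with quartiles of -0.57 and 0.48. The median height was 6.74 FPM in MG132 and 7.57 in DMSO. The shared pairs were 10.1% of the MG132 peaks (95% interval 9.86% to 10.3%) and 14.7% of the DMSO peaks (14.4% to 15.0%). Intervals of shares are Wilson intervals and those of single ratios are exact (Clopper-Pearson) intervals of the 2 pileups. Both cover counting error only, and duplicate fragments are not independent molecules. The interval of the median log2 ratio was taken from the ranked pairs and treats them as independent. It describes the pairs of these 2 libraries and holds no spread between libraries.

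A pair was called higher or lower where the ratio was at least 2-fold and its 95% counting interval left out 1. By this rule 875 pairs were higher in MG132, which is a percentage called of 12.4, and 1062 were lower, a percentage called of 15.1. The other 5103 pairs, 72.5%, were not called. The counting interval held 1 at 2466 pairs. The order of the 2 counts depended on the scaling. When pileups were divided by the median pileup of the shared pairs in place of the library's fragments, every log2 ratio moved up by 0.17, the median log2 ratio became 0.18, and 1088 pairs were higher and 884 lower. The split also varied with height. Among the 1070 pairs with a mean height under 2 FPM, 87 were higher and 51 lower, and among the 1763 pairs from 5 to 10 FPM, 231 were higher and 361 lower. The 1445 pairs of 20 FPM or more had a median log2 ratio of 0.0089, with 162 higher and 193 lower.

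The balance of higher and lower pairs differed with where the shared pairs lay. Most of the pairs, 3843 or 54.6%, lay in 75 windows of 1 Mb that each held at least 10 pairs. These dense windows were defined after the data were seen. They formed 28 blocks over all 23 chromosomes, at the positions of the centromeres and the satellite repeats beside them on most chromosomes. Peaks of 1 repeat copy cannot be told from those of another there. In the dense windows the median log2 ratio was 0.074 (quartiles -0.48 and 0.61), with 517 pairs higher and 453 lower. Outside them, 3197 pairs had a median of -0.028 (quartiles -0.71 and 0.32), with 358 higher and 609 lower.

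**Figure D1:**
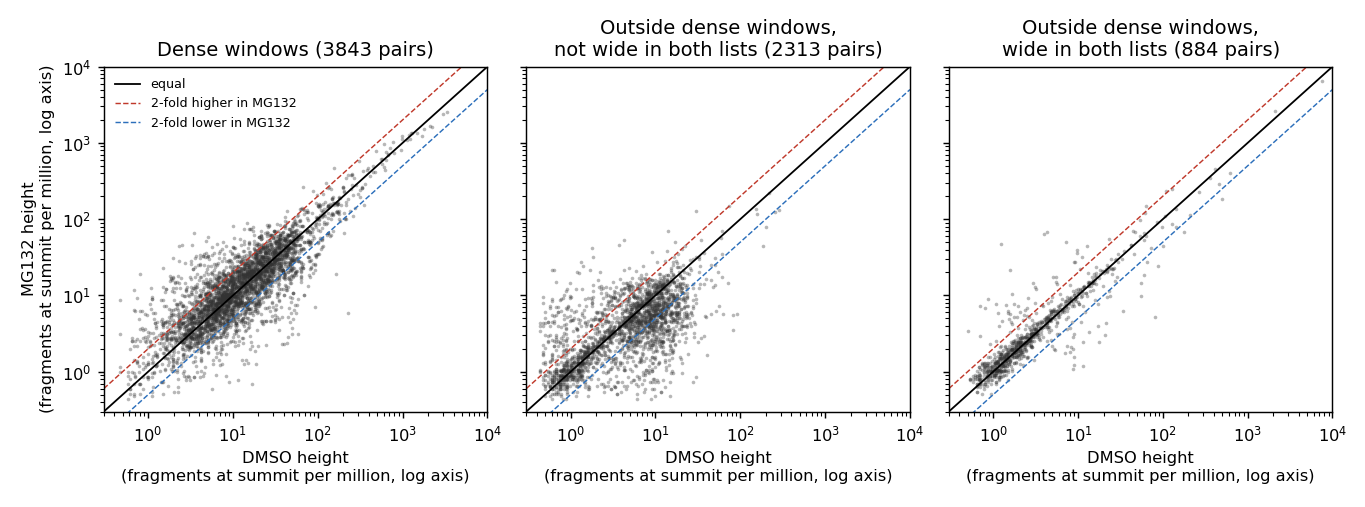
Height of each shared pair in DMSO (x axis) and MG132 (y axis), as fragments at the summit per 1000000 library fragments (FPM) on log axes, for 3843 pairs in dense windows, pairs outside them that were not wide in both lists, and the 884 pairs that were. Solid lines mark equal heights and dashed lines a 2-fold difference, and the 884 pairs lie closest to the solid line.

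The blocks were not alike. The block with most pairs, on chromosome 7 from 58 to 61 Mb, held 403 pairs with a median log2 ratio of -0.10, 15 higher and 24 lower. On chromosome 20 from 26 to 29 Mb, 209 pairs had a median of 0.37, with 41 higher and 9 lower. The 330 pairs on chromosome 18 from 15 to 21 Mb had a median of 0.17, and those on chromosome 11 from 51 to 54 Mb, 53 pairs, one of -0.24. The smallest block, on chromosome 8 from 85 to 86 Mb, had the highest median, 1.59, with 7 of its 11 pairs higher and 0 lower. Blocks on X (58 to 62 Mb, 29 higher and 11 lower) and on chromosome 4 (49 to 52 Mb, 10 higher and 22 lower) went opposite ways. Over the 33 windows with at least 50 pairs, the medians ran from -0.23 to 0.36.

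The 5 tallest shared pairs all lay outside genes on chromosome 1, and their ratios were close to 1. The tallest, chr1:125179563-125180660 in the MG132 list, was covered by 174272 fragments in MG132 and 226046 in DMSO, or 6386 and 7606 FPM. Its ratio was 0.84, and the combination had 6752 FPM there. Of the next 4, 3 lay near 143 Mb with ratios of 0.74 to 0.79. The remaining pair, beside the tallest, had 70749 and 63244 fragments and a ratio of 1.22. None of the 5 reached 2-fold. The tallest and its neighbour lay just past the end of a dense block, and so are among the pairs outside dense windows that follow.

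Outside the dense windows, the form of the peaks set the pairs apart. Where the peak was wide in both lists, 884 pairs, the ratios were narrow around 1, with a median log2 of 0.072 and quartiles of -0.15 and 0.29. In this class 55 pairs were higher, a percentage called of 6.22, and 38 were lower, a percentage called of 4.3. The interval held 1 at 684 of the 884, or 77.4%. Where the peak was wide in neither list, 1769 pairs, the median was -0.23, with 206 higher and 472 lower, or 26.7%. Over all shared pairs, dense windows included, the 530 with both summits centred had a median of -0.60. Heights moved with form as well. The median pileups of the 884 pairs were 66 in MG132 and 65.5 in DMSO, and those of the 1769 pairs were 118 and 181.

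**Figure D2:**
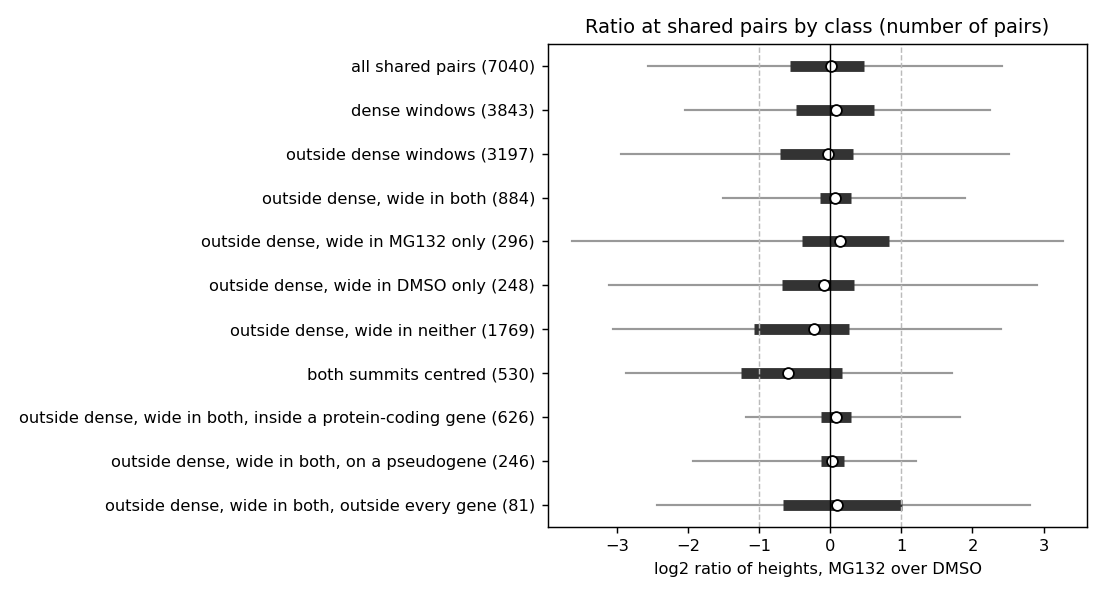
Log2 ratio of heights, MG132 over DMSO, for classes of shared pairs, with the number of pairs in brackets. Circles are medians, thick bars run between the quartiles, thin lines hold the central 95% of pairs, and dashed lines mark a 2-fold difference. The bar of the 884 pairs wide in both lists lies between -0.15 and 0.29, and that of the 1769 wide in neither reaches lower.

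Most of the 884 wide pairs lay in genes. There were 626, or 70.8% (67.7% to 73.7%), inside a protein-coding gene, 246 on a pseudogene (27.8%) and 81 outside every gene (9.16%). Whether they lay in exons or introns was not analysed here, so whether RNA of the cells' own genes adds to the heights in genes and on pseudogenes was not tested, here or in the values by gene that follow. Inside protein-coding genes 27 pairs were higher and 19 lower, and on pseudogenes 8 and 9. The 81 pairs outside genes were taller, with medians of 14.5 and 11.2 FPM, and 21 of them were higher and 14 lower. As shares, 4.31% and 25.9% of the pairs were higher in genes and outside genes.

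The combination list, which the choice of pairs did not use, held a peak overlapping the MG132 peak at 787 of the 884 wide pairs. At the 43 such pairs among those higher in MG132, the median height was 7.88 FPM in MG132 and 2.36 in DMSO, and that of the combination was 2.75. At the 31 among those lower in MG132, they were 2.82, 11.4 and 2.44. So at the called pairs of both directions, the combination's median lay beside the lower library of the pair. Over all called pairs, dense windows included, it lay between them, at 8.37 FPM where MG132 had 13.9 and DMSO 4.11 (533 higher pairs), and at 7.87 where they had 5.24 and 18.0 (443 lower pairs). At the 713 wide pairs not called, the 3 medians were 2.38, 2.22 and 1.98. The SHP1705 library stood apart at these peaks, with a median of 62.8 FPM over the 762 pairs found in all 4 lists, against 2.46 in MG132.

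Among wide pairs near genes, with at least 50 fragments in the higher library, the 12 highest and 12 lowest ratios were looked up after the values were seen. NFE2L1, the gene of the factor that drives transcription of proteasome subunit genes when the proteasome is blocked, had the lowest ratio of these. At chr17:48050652-48051556, inside the gene, 32 fragments covered the summit in MG132 and 342 in DMSO, a ratio of 0.10 (0.07 to 0.15), or 9.81-fold lower in MG132. The heights were 1.17 FPM in MG132, 11.5 in DMSO, 1.02 in the combination and 38.1 in SHP1705. A second wide pair 9101 bp outside the gene differed little, with 35 and 31 fragments. Next came CHMP1B, which encodes a subunit of the membrane-cutting ESCRT-III complex, with 30 and 257 fragments. ADD1, the gene of the membrane skeleton protein adducin, had 33 and 267.

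The further low ratios mixed genes, processed copies and repeated genes. SDK1, an adhesion molecule, had 270 fragments in MG132 and 1627 in DMSO, and PRKAR1B, a regulatory subunit of protein kinase A, had 672 and 2592. The pairs in SAXO1 and KIF24 lay on the pseudogenes PSMC3P1, a copy of a proteasome ATPase gene, with 67 and 340, and SERPINH1P1, with 55 and 259. GPX3, a secreted glutathione peroxidase, had 60 and 221. KATNAL2 held 3 such pairs with ratios of 0.18 to 0.25. Of these, 2 lay on the pseudogenes ELOA3BP and ELOA3DP, and all 3 had the same lengths in both lists, so reads of near-identical copies could have been placed on any of them.

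The highest ratios among wide pairs were found in DPP6, a subunit of neuronal potassium channels, with 1767 fragments in MG132 and 117 in DMSO, and in NCKAP5, with 581 and 47. The combination heights at both were between those of the other libraries, at 24.3 and 10.3 FPM. At GNB4, a G protein subunit, 242 and 26 fragments were counted, on the pseudogene MTHFD2P7. MACROH2A1, a histone variant gene, had 208 and 32, and NHERF1, a scaffold of membrane proteins, 186 and 24. Near FASN, the fatty acid synthase, 396 and 88 fragments were counted at a summit 3187 bp outside the gene. EHD2, a caveolar ATPase, had 356 and 92. UBE2V1, a partner of a ubiquitin-conjugating enzyme, had 159 and 34 fragments, or 5.83 and 1.14 FPM, a ratio of 5.09 (3.50 to 7.61), and 1.24 FPM in the combination.

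**Figure D3:**
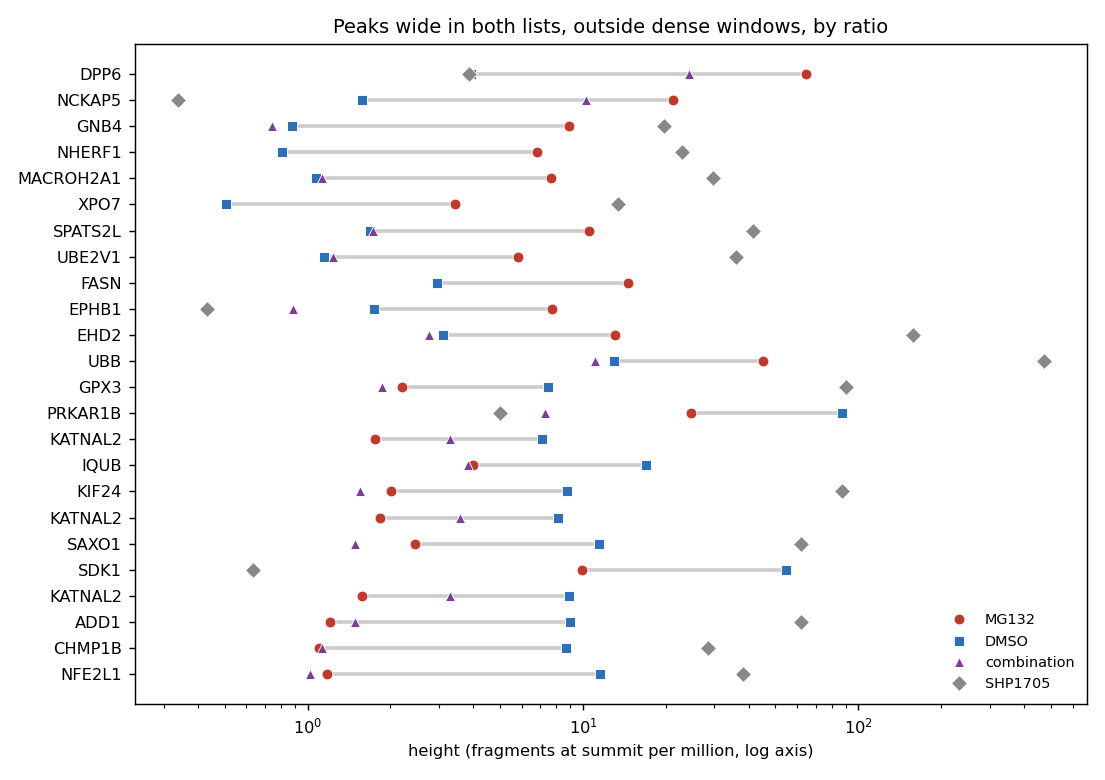
Heights in the 4 lists, as FPM on a log axis, for named pairs among the 12 highest and 12 lowest ratios of wide shared pairs near genes outside dense windows, and for UBB, ordered by ratio. Grey bars join MG132 and DMSO, and a missing symbol means that no peak of that list overlapped. At NFE2L1 the MG132 and combination symbols lie together at 1.17 and 1.02, below DMSO at 11.5.

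When pairs of any form were taken, with a summit in or within 10 kb of a protein-coding gene and at least 50 fragments in the higher library, the extremes were wider and most were not wide in both lists. The highest ratio was that of GSR, which encodes glutathione reductase, with 588 fragments in MG132 and 18 in DMSO, a ratio of 35.6 (22.3 to 60.4). LRRC7, a scaffold of neuronal synapses, had 1158 and 53, and CDC42SE2, an effector of the GTPase CDC42, had 262 and 14. They were followed by DPP6, by NUCB2 (246 and 18), by CPE, carboxypeptidase E, on the pseudogene HADHAP1 (395 and 29), and by NCKAP5. DCDC1 (333 and 27), IRAG1 (316 and 26) and FAM120B (1233 and 109) closed the list of 10. Only DPP6 and NCKAP5 of these 10 were wide in both lists.

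The lowest ratio of any form was that of CASK, a scaffold kinase of synapses, with 20 fragments in MG132 and 822 in DMSO, a 37.7-fold lower height in MG132. LY9, a receptor of lymphocytes, followed with 45 and 1204, its summit 7773 bp from the gene. MGST1, a microsomal glutathione transferase, had 26 and 615 on the pseudogene SUPT16HP1. TRPM3 (17 and 390), LTBP1 (15 and 344), ASGR2 (15 and 341), ADAMTS6 (13 and 293), CFAP298 (20 and 435), ADK (26 and 482) and RAB31 (16 and 284) completed the 10. The ASGR2 summit lay 1237 bp from the gene. None of the 10 was wide in both lists. The combination had an overlapping peak at LY9 and LTBP1 alone among these 10, at 3.14 and 0.60 FPM, both nearer MG132 than DMSO.

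Genes of the pathways that a blocked proteasome is known to engage, of the clock, and of breast cell identity were then read off from 16 lists, of which 340 genes matched. A gene was counted where a summit lay inside it or within 10 kb. Of the 340 genes, 77 had a shared pair, or 22.6%, against a percentage called of 12.7 over all 19821 protein-coding genes. A higher pair was near 2 of them, against a percentage called of 1.05, and a lower pair near 7, against 2.01. Their pairs were 80, with a median log2 ratio of 0.081, against 0.013 over all shared pairs. Of the 80 pairs, 48 were wide in both lists, and among these 1 was higher and 1 was lower, with a median of 0.18 and quartiles of -0.013 and 0.29. These are shares of 2.08% each, set beside the 6.22 and 4.3 of the wide class. The other 6 lower pairs and the other higher pair were not wide in both lists.

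**Figure D4:**
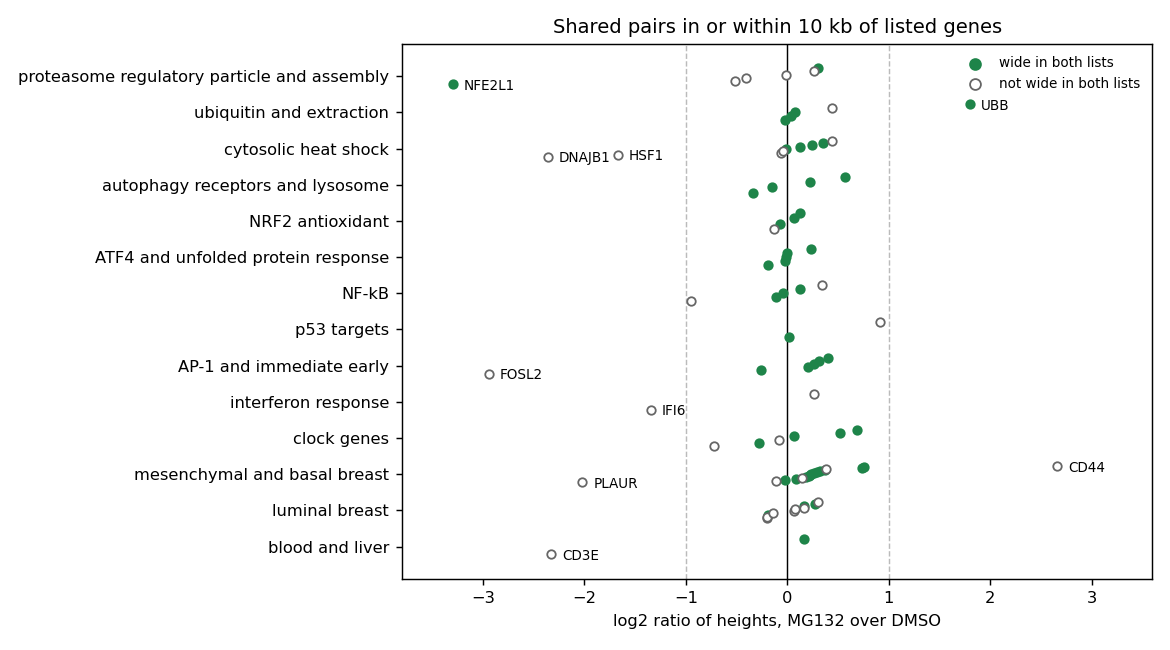
Log2 ratio of heights, MG132 over DMSO, at each shared pair inside or within 10 kb of the listed genes, in 1 row per list. Filled points are pairs wide in both lists and open points are not, dashed lines mark a 2-fold difference, and pairs at least 2-fold different are named. Of the filled points only UBB at 1.80 and NFE2L1 at -3.29 lie outside the dashed lines.

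The ubiquitin genes held the 1 wide pair of the lists that was higher. UBB, a gene of polyubiquitin, was covered by 1226 fragments in MG132 and 384 in DMSO, or 44.9 and 12.9 FPM. Its ratio was 3.48 (3.10 to 3.91), at chr17:16381884-16382808 inside the gene, with summits 228 bp apart, so that the pair is lost when summits must lie within 100 bp. The combination had 11 FPM there and SHP1705 472. UBB carries tandem ubiquitin repeats with near-identical copies elsewhere in the genome, so the placing of fragments within the repeats is uncertain. Of 20 genes of ubiquitin and of extraction from membranes and complexes, 5 had a shared pair (25%), against 12.7% of all protein-coding genes. UBB, the 1 gene with a higher pair (5%), stands against 1.05% of all protein-coding genes. STUB1, a ubiquitin ligase of chaperone clients, had 35 and 28 fragments, and RAD23B, a shuttle to the proteasome, 60 and 62. NPLOC4, an adaptor of the extraction enzyme, had a DMSO-only peak of 304 fragments.

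Over all protein-coding genes, 12.7% had a shared pair, 10.3% an MG132-only peak and 4.9% a DMSO-only peak, and the proteasome counts lay near these shares for shared pairs and MG132-only peaks. Of the 17 genes of the core particle, which holds the proteolytic sites, 0 had a shared pair. PSMA1 had an MG132-only peak of 369 fragments, and PSMB1 an MG132-only peak of 266 inside the gene and a DMSO-only peak of 109 outside it. Of the 31 genes of the regulatory particle, its assembly and its control, 5 had a shared pair, and NFE2L1 alone was called. Its lower pair stands for 3.23% of the 31 genes, against 2.01% of all protein-coding genes. PSMD14, the deubiquitinase of the particle, had 42 and 38 fragments on the pseudogene MXRA7P1, and PSMD7, its partner, 25 and 39. MG132-only peaks lay at PSMC2, an ATPase (109 fragments), PSMD13 (75) and near PSME4, an activator (125). No gene of the 31 had a DMSO-only peak.

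Heat shock genes had lower pairs at their regulator and at a co-chaperone. HSF1, the factor that switches on heat shock genes, had 64 fragments in MG132 and 222 in DMSO, a ratio of 0.31 (0.23 to 0.42), and a DMSO-only peak of 537 inside the gene as well. DNAJB1, an inducible partner of HSP70, had 109 and 608, a ratio of 0.20 (0.16 to 0.24), and a DMSO-only peak of 151. Neither pair was wide in both lists, and the combination had no overlapping peak at either. The chaperone genes themselves gave like heights in both libraries. HSP90AA1 had 238 and 219 fragments, HSP90AB1 84 and 84, HSPA8 145 and 165, HSPD1 49 and 55, and HSPA2 76 and 65. HSPB1 had 107 and 86, a ratio of 1.35 (1.01 to 1.82). In all, 9 of the 25 heat shock genes had a shared pair, against 12.7% of all protein-coding genes, 2 an MG132-only peak, against 10.3%, and 3 a DMSO-only peak, against 4.9%. The 2 genes with a lower pair stand against 2.01% of all genes, and 26.7% of the pairs wide in neither list outside dense windows were lower. BAG3, a co-chaperone of the stress response, had an MG132-only peak of 31 fragments.

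The ATF4, NRF2 and autophagy lists had no called pair. ATF4, the factor of the integrated stress response, had 102 and 112 fragments, XBP1, a factor of the unfolded protein response, 29 and 36, and HSPA5, the main chaperone of the endoplasmic reticulum, 252 and 234. CALR, a lectin chaperone, had 399 and 441. In the NRF2 list, NFE2L2, which encodes NRF2, had 25 and 25, NQO1, a quinone reductase, 46 and 48, and TXNRD1, thioredoxin reductase, 565 and 648 on the pseudogene RPL18AP3. SLC7A11, the cystine carrier, had an MG132-only peak of 238 fragments 6368 bp away. SESN2, a stress-induced regulator of growth signalling in the ATF4 list, had one of 187 at 5670 bp. Of the autophagy genes, LAMP1, a lysosomal membrane protein, had the highest ratio, 1.48 (1.09 to 2.01), with 106 and 78 fragments.

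In the NF-kB, p53, AP-1 and interferon lists, 2 pairs were called, both lower and neither wide in both lists. They lay in 1 of 24 AP-1 genes and 1 of 24 interferon genes (4.17% each), against 2.01% of all protein-coding genes. FOSL2, a subunit of AP-1, had 46 and 384 fragments, a ratio of 0.13 (0.09 to 0.18). The AP-1 genes JUN (43 and 56), JUNB (55 and 52) and JUND (44 and 40) had like heights, and so had CCN1 (169 and 148). IFI6, an interferon-induced gene, had 199 and 551, a ratio of 0.39 (0.33 to 0.46). CDKN1A, the p53 target that encodes the cell cycle inhibitor p21, had 102 and 110, and GADD45A, another target, 45 and 26. RELB, an NF-kB subunit, had an MG132-only peak of 383 fragments, and BIRC3, an inhibitor of apoptosis and NF-kB target, one of 176. REL, another subunit, had 119 and 251 fragments, a ratio of 0.52 (0.41 to 0.64).

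The clock list, which belongs to the second drug of the series, had no call. A shared pair lay at 6 of its 24 genes (25%), against 12.7% of all protein-coding genes. BHLHE40, a clock repressor, had 31 and 41 fragments. CSNK1D, a kinase that marks PER proteins, had 32 and 37 at its shared pair and an MG132-only peak of 527 elsewhere in the gene, the tallest of the list. NFIL3, a repressor of clock output genes, had MG132-only peaks of 390 and 20 fragments. RORA, a clock activator, had an MG132-only peak of 148 and a DMSO-only peak of 193, and PER2 a DMSO-only peak of 146.

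Mesenchymal genes were the list with the largest share of shared pairs, 14 of 24 genes (58.3%), against 12.7% of all protein-coding genes. Their 12 wide pairs had a median log2 ratio of 0.25 with no call. VIM, the intermediate filament of mesenchymal cells, had 263 and 221 fragments, FN1, fibronectin, 322 and 280, and SPARC, a matrix glycoprotein, 385 and 395. COL4A1, a basement membrane collagen, had 112 and 73, a ratio of 1.67 (1.23 to 2.28). CD44, the hyaluronan receptor, had 174 and 30, a ratio of 6.32 (4.27 to 9.64), and PLAUR, the urokinase receptor, 62 and 274, a ratio of 0.25 (0.18 to 0.33), and neither was wide in both lists. CD44 also had a DMSO-only peak of 38 fragments inside the gene. Genes with a higher and with a lower pair were 4.17% of the list each, against 1.05% and 2.01% of all protein-coding genes. ZEB2, a repressor of epithelial genes, had a DMSO-only peak of 673 fragments and an MG132-only peak of 26.

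Of 22 luminal genes, 8 had a shared pair (36.4%), against 12.7% of all protein-coding genes, and none was called. The keratin genes KRT8 (379 and 393 at its tallest pair) and KRT19 (346 and 337) had like heights. In the blood and liver list, whose genes are silent in breast cells, CD3E, a T cell receptor subunit, had 66 and 361 fragments, a ratio of 0.20 (0.15 to 0.26), and LYZ, lysozyme, 350 and 341. The CD3E pair was called lower and was not wide in both lists. It lay at 1 of 22 genes (4.55%), against 2.01% of all protein-coding genes. In the list of the deleted locus, the pair 7995 bp outside CDKN2A had 19 and 21 fragments, or 0.70 and 0.71 FPM, where the combination had 25.6 FPM.

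Peaks found in 1 list alone were more numerous with MG132. There were 4899 MG132-only peaks, 7.01% of that list (6.83% to 7.21%), and 2715 DMSO-only peaks, 5.68% (5.47% to 5.89%). Per 1000000 fragments of the library these were 179.5 and 91.4 peaks. The order turned when lists of equal length were compared. With the MG132 list limited to as many peaks as DMSO, those of lowest p, 2707 peaks were MG132-only and 4673 DMSO-only. Only the MG132 list was cut. DMSO peaks overlapped only by dropped MG132 peaks then count as DMSO-only, so by construction that count can only rise and the MG132-only count only fall. MG132-only peaks were lower, with a median of 5.28 FPM (quartiles 2.75 and 9.75), against 6.63 (3.20 and 13.3) in DMSO. Over all peaks of the MG132 and DMSO lists the medians were 5.42 and 8.04 FPM. The lists thus differed in the same direction before any peaks were chosen. At least 20 FPM were reached by 307 MG132-only peaks, or 6.27%, and by 350 DMSO-only peaks, or 12.9%.

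Peaks lay closely on both sides of each limit of choice. The 78 pairs with summits 241 to 250 bp apart had a median log2 ratio of 0.11, and the 79 just outside, at 251 to 260 bp, one of -0.12. MG132 peaks just short of the length limit, at 521 to 530 bp, had a median of 6.19 FPM (116 peaks), and those at 531 to 540 bp one of 5.50 (136). In DMSO they were 5.62 at 509 to 518 bp (88) and 6.95 at 519 to 528 bp (72). By the summit condition, 55 long MG132 peaks with a summit at most 2 bp from the middle had a median of 8.43, and 56 at 2.5 to 4.5 bp one of 8.98. The DMSO values were 8.14 over 23 peaks and 12.9 over 27.

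MG132-only peaks lay in the dense windows less than DMSO-only peaks did, at 28.3% (27.0% to 29.5%) against 45.2% (43.3% to 47.0%). Over all peaks of the MG132 and DMSO lists these shares were 13.7% and 19.5%, so the lists differed in the same direction before any peaks were chosen. Inside a protein-coding gene lay 33.0% of MG132-only and 27.4% of DMSO-only peaks, against 39.3% and 37.2% of all peaks, and outside every gene 57.1% and 65.2%, against 47.9% and 50.7%. Without the dense windows, the order of the shares inside genes turned, to 45.9% (44.2% to 47.5%) and 49.9% (47.4% to 52.4%). On pseudogenes lay 2.25% and 2.58%, near the 2.77% and 3.30% of all peaks, where 27.8% of the wide shared pairs did. Among protein-coding genes, the percentage with a summit inside or within 10 kb was 10.3 for MG132-only and 4.9 for DMSO-only peaks. Of the 340 listed genes it was 38, or 11.2%, and 18, or 5.29%. With lists of equal length these counts turned, to 18 (5.29%) and 66 (19.4%), and the percentages over all protein-coding genes were then 6.26 and 10.8. There, DMSO peaks overlapped only by dropped MG132 peaks were counted as DMSO-only.

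The tallest MG132-only peaks near genes lay in ARHGAP39, a GTPase-activating protein, with 2418 fragments or 88.6 FPM, and in VAPB, a tether of the endoplasmic reticulum, with 2398. HDAC4, a histone deacetylase, had 1627 and SCUBE3 1423. PDCD6 (1274), ZNF57 (1034), PLEKHG1 (996), EFCAB6 (986) and KIAA0232 (981) followed. In the combination, 3 of the 10 tallest were overlapped by a peak, among them ARHGAP39 at 59.4 FPM and PDCD6 at 7.06. SHP1705 had a peak at 4 of them.

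The tallest DMSO-only peak near a gene lay in LOC124904103, with 2618 fragments or 88.1 FPM, followed by MUC17, a membrane mucin, with 2330, CDH4, a cadherin 8288 bp away, with 2132, and NLRP3, the inflammasome sensor, with 1981. NR6A1 (1952), PTPRN2 (1710), LOC124902565 (1625), NAALADL2 (1480), RPTOR, the mTORC1 subunit raptor (1463), and CARD19 (1325) completed the 10. The combination had a peak at 1 of them, in PTPRN2, at 3.71 FPM. PTPRN2, a phosphatase of secretory vesicles in a gene of 1049 kb, held the most of both kinds, 6 MG132-only and 10 DMSO-only peaks. ADAR, an RNA-editing enzyme whose gene spans 45.9 kb, held 4 DMSO-only peaks and 0 MG132-only peaks.

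The other lists, which the choice did not use, held few of the one-list-only peaks. A combination peak overlapped 18.2% of MG132-only peaks (17.2% to 19.4%) and 23.4% of DMSO-only peaks (21.8% to 25%). The shares over all peaks of each list were 13.3% and 17.0%. Outside the dense windows the shares of the one-list-only peaks were 10.3% and 13.8%, and with lists of equal length they were 15.2% and 45.4%. The DMSO-only peaks of the last share include those overlapped only by dropped MG132 peaks. No peak of either other list was found at 69.4% of MG132-only and 62.8% of DMSO-only peaks. The order of the shares depended on height. At 20 FPM or more, the combination overlapped 35.2% of MG132-only (30.1% to 40.7%) and 27.4% of DMSO-only peaks (23% to 32.3%). Below 2 FPM it overlapped 18.4% (15.8% to 21.4%) and 31.5% (27.2% to 36.1%). SHP1705 peaks overlapped 33.9% and 43.3% of these lowest peaks.

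**Figure D5:**
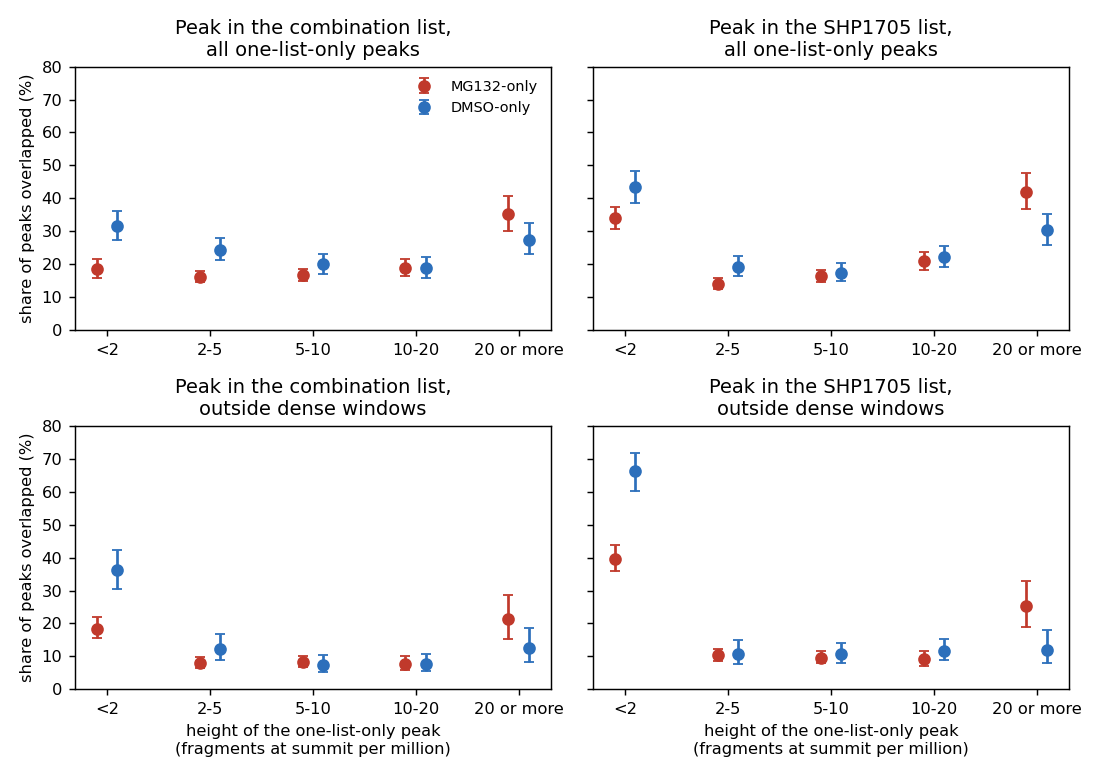
Share of MG132-only and DMSO-only peaks that were overlapped by a peak of the combination (left) or of SHP1705 (right), by height in FPM, for all such peaks (top) and outside dense windows (bottom). Points are percentages and bars are Wilson 95% intervals. For the combination, DMSO-only shares are above MG132-only shares below 2 FPM, at 31.5% and 18.4%, and below them at 20 or more, at 27.4% and 35.2%.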

How the data were processed

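Reporter RNA of 4 STARR-seq libraries, 1 per treatment, was sequenced, and 1 peak list per library was used. The submitters' processing notes name Trimmomatic, FastQC, Bowtie2, MACS2 and hg38. The version of each of the first 3 was not given in the sources used here. MACS 2.2.6 called the peaks of each library alone, per the file headers, at a q limit of 0.01, with duplicates kept, no control and a local background over 10000 bp. The signal of a peak, its pileup, was deposited by the authors as the unscaled number of fragments over the summit. The −log10 p and q, and the ratio (fold) of pileup to local background, are the authors' values too, and served only to rank or filter peaks. A table of GRCh38.p14 from RefSeq, without exons, gave 58419 genes, 19821 of them protein-coding.

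Pileups were divided by the header's total fragments. Pairs were mutual nearest summits. The pairing, overlap and interval steps were tested on simulated data. Python 3.11.15, numpy 2.4.6, scipy 1.17.1, pandas 2.3.3 and matplotlib 3.10.9 were used. Named were the 10 highest and 10 lowest ratios near genes with at least 50 fragments in the higher library, the 5 tallest pairs, the 10 tallest one-list-only peaks of each kind near genes, and up to 3 members per list and set. Other named peaks, including further list members and the wide pairs, were added after their values were seen. The members and lists were chosen with earlier results of these data known. Of 342 list memberships, 341 matched. With no genome sequence, peak sequences were not analysed here. Alternatives varied the summit distance, overlap, q limit, list length, scaling, length and summit limits, and gene distance. Some members that the naming rule picks are not reported here.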

Additional observations from a re-analysis of the deposited data

Results flagged for a closer look

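Peaks that no comparison used lay outside chromosomes 1 to 22 and X, on other sequences of the assembly. There were 2041 of them in the DMSO list. The MG132 list held 2745.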

How the results depend on the processing

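Of 85 recomputed values, 47 kept to the main value within 1.5 times (counts) or within its 95% interval (medians, shares and named ratios). The other 38 moved. These labels did not record a change of direction. The order of higher and lower pairs turned with median scaling, and that of the one-list-only counts with lists of equal length. Summit limits of 100 or 500 bp, a −log10 q of at least 5, a 2-fold limit alone and a summit offset over 10 bp kept each count and median they were tried on within those bounds. Shared pairs were 5314 and 8289 at 100 and 500 bp, or 7.61% and 11.9% of the MG132 peaks, and at 100 bp the UBB pair was lost. The median log2 ratio became 0.18 with median scaling, 0.066 for pairs wide in both lists and -0.028 without dense windows. Higher and lower pairs were 1473 and 1698 at 1.5-fold, 194 and 153 where wide in both lists, and 358 and 609 without dense windows. MG132-only and DMSO-only peaks were 12227 and 8540 with a shorter minimum length and 2982 and 1593 at 2 times d, and DMSO-only peaks were 1489 without dense windows. With lists of equal length, shared pairs were 3924, MG132-only peaks 2707 and DMSO-only peaks 4673. The shares inside protein-coding genes were then 17.5%, 36.5% and 32.9% (shared, MG132-only, DMSO-only), those outside every gene 74.6%, 52.2% and 59.4%, those with a combination peak 15.2% and 45.4%, and the listed genes 25, 18 and 66. Without dense windows the shares inside genes were 54.6%, 45.9% and 49.9%, outside every gene 27.1%, 40.5% and 36.9%, and with a combination peak 10.3% and 13.8%. Within 50 kb, 71 and 34 listed genes had an MG132-only and a DMSO-only peak. Subsets and shorter lists hold fewer peaks by construction. With lists of equal length only the MG132 list was cut, so DMSO peaks that lost their MG132 partners were added to the DMSO-only peaks by construction. The cause of the other moves was not tested. The alternatives without dense windows, other window limits and those of the combination share were chosen after seeing the data. Scaling by fragments after filtering was not run, as the headers give the total alone. No paired analysis was possible because each treatment has 1 library. With 1 library a side, depth limits each ratio to counting error, and a pair of about 20 fragments a side carries an interval of nearly 2-fold each way, as near CDKN2A.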

Other observations

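Chromosomes differed in the ratio at shared pairs. The median log2 ratio, MG132 over DMSO, was lowest on chromosome 9, at -0.12 over 268 pairs (95% interval -0.25 to -0.028). It was highest on chromosome 20, at 0.18 over 305 pairs (0.11 to 0.26). Outside the dense windows, the medians ran from -0.24 on chromosome 18 (53 pairs) to 0.094 on chromosome 21 (38 pairs). Chromosome 20 had one of -0.22 there over 96 pairs. Over all its pairs, chromosome 18 had a median of 0.12, so both chromosomes changed sign. MG132-only peaks made up from 4.33% of the MG132 peaks on X to 11.4% on chromosome 21, and DMSO-only peaks from 2.76% of the DMSO peaks on X to 9.14% on chromosome 22. On each of the 23 chromosomes there were more MG132-only than DMSO-only peaks, and the MG132 list was also the longer one on each. As shares of each list, chromosome 9 went the other way, at 7.83% MG132-only and 8.49% DMSO-only.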
